A study of Homo sapiens with 5 samples.

Results

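Genes of glucose transport, glycolysis, lactate handling and the hypoxia response were followed in HEK293 cells, a long-established line of human embryonic kidney origin. The genes were chosen by name, and 42 of the 43 listed had a row in the deposited count table of 16677 genes. The remaining gene, CA9, which encodes a carbonic anhydrase of the cell surface, has no expression value here. All 5 libraries came from HEK293 cells in basal culture. The labels give 2 of them as wild type and 3 as carriers of rs11607019, a T-to-C change that the series places in SIRT3, the gene of a mitochondrial deacetylase. The labels do not say whether the variant libraries came from 1 clone or several, so p-values measure only the spread between these libraries, which may be technical.

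Glycolysis splits glucose into pyruvate in the cytosol. Glucose enters through facilitative carriers of the SLC2A family, hexokinase traps it as glucose 6-phosphate, phosphofructokinase sets much of the flux, and lactate dehydrogenase turns pyruvate into lactate, which leaves through monocarboxylate carriers. When oxygen is low, the prolyl hydroxylases stop marking HIF-1 alpha for VHL, and the stabilised factor pairs with ARNT and switches on most glycolytic genes together with genes of blood vessel growth, mitophagy and collagen hydroxylation. HIF binds a short core, ACGTG or GCGTG, and glycolytic enzymes and the other HIF targets therefore often move together when the pathway is engaged.

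Expression was measured as read counts per gene and is given as CPM, the count scaled to the size of its library, after TMM scaling of library composition. Groups were compared with edgeR's quasi-likelihood test, which gives a two-sided p for each of 16310 tested genes and an adjusted p by the Benjamini-Hochberg method over all of them. Library totals ran from 17122569 to 17596084 counts and TMM factors from 0.983 to 1.01. Spearman correlations between libraries ran from 0.978 to 0.989, and the closest pair, wild type 2 and variant 3, crossed the groups. SIRT3 itself stood at 28.9 and 29.3 CPM in wild type and at 26.5, 15.8 and 30.2 CPM in the variant libraries, and its groups overlapped. Of 4 HEK293 markers, VIM and PAX2 were present in each library and NEFL and NEFM had no row. Of 14 markers of 4 other cell types (leukocyte, fibroblast, endothelium, hepatocyte), 0 had a row.

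The HIF core was looked for in promoters because it is what the glycolytic and the other targets are known to share. RefSeq promoters on GRCh38.p14, from 250 bases before to 50 bases after a start, matched 36 of the 43 listed genes, 12 of them with more than 1 start. Each was searched for ACGTG and GCGTG on both strands, that is also for CACGT and CACGC, and a CACGTG palindrome counts as 2 overlapping matches. A match was found in 11 of 13 promoters of non-glycolytic hypoxia targets (84.6%) and in 23 of 37 promoters of glycolytic enzymes (62.2%). Counted by gene, 16 of 17 enzymes (94.1%) and 9 of 10 targets (90.0%), CA9 among them, held a match at 1 or more starts, so the lower enzyme share by promoter is not seen by gene. By gene the share was 70.3% among the 10934 tabled genes with a promoter. A gene with more starts has more chances of a match, and the enzymes had more promoters per gene than the targets or the tabled genes. The shares by gene are therefore not on an equal footing. A match was held by 60.9% of the 15873 promoters of tabled genes and by 48.4% of all 35116 promoters. The 250 bases before the start are shown for LDHA, LDHB and ENO1. Among the 17 enzymes, LDHA and LDHB had the lowest ratios of variant to wild-type level. The level of ENO1 was nearly the same in both groups. Capitals mark the matches, and each sequence runs 5′ to 3′ on the strand of its gene.
LDHA promoter, chr11:18394313-18394562, forward strand: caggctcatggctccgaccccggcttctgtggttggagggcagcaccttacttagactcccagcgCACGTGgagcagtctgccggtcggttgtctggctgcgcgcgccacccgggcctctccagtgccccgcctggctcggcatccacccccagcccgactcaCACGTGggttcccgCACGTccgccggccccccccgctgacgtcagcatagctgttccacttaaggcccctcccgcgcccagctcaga
LDHB promoter, chr12:21657843-21658092, reverse strand: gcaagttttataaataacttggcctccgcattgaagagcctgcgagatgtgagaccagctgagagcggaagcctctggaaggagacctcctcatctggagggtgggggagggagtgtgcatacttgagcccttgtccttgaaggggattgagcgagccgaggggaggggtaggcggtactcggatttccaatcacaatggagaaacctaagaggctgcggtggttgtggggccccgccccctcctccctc
ENO1 promoter, chr1:8878687-8878936, reverse strand: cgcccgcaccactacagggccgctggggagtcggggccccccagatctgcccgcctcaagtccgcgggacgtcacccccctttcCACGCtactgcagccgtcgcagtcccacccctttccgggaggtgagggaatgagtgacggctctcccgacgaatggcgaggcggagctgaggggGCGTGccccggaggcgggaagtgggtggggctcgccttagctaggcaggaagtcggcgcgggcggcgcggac
The LDHA stretch holds 5 matches, in 2 palindromes and 1 further core that starts 73 bases before this RefSeq start. RefSeq lists a second LDHA start, not shown, whose window holds 1 match. LDHB has 0 in this stretch and 1 in the whole window. ENO1 has 2, starting 166 and 72 bases before the start. These starts lie inside the wider gene spans of GENCODE release 29.

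No member passed the adjusted threshold. In edgeR's quasi-likelihood test 0 of the 42 members had an adjusted p under 0.05, as did 0 of all tested genes (0%). At an unadjusted p under 0.05 there were 3 members (7.14%), SLC2A3, LDHA and LDHB, against 7.62% of all tested genes. All 3 were lower in the variant and 0 were higher. Among all tested genes 3.51% were called lower and 4.11% higher. The groups did not overlap at 9 members (21.4%), 7 of them lower and 2 higher, against 24.8% of all tested genes (13% lower, 11.8% higher). These shares are near or below those of all genes, so the counts are no result about the members as a set. Of the 42 members, 23 had a log2 fold change below 0 (54.8%), against 49.5% of all tested genes. The median log2 fold change was −0.01 over the members and 0.00300 over all tested genes.

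**Figure D1:**
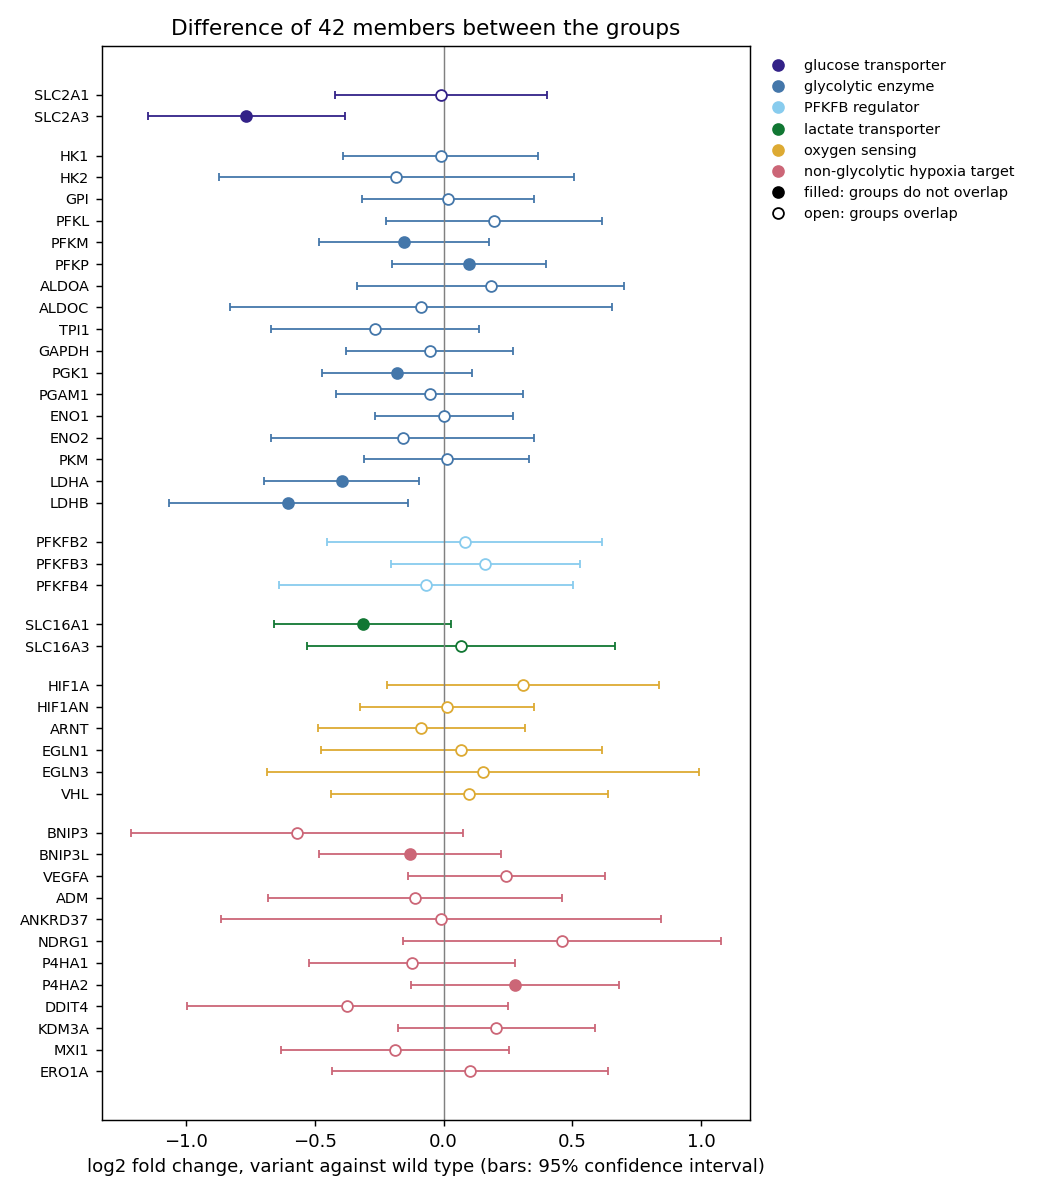
Log2 fold change between the groups (variant over wild type) for the 42 members, ordered by role (points; bars are 95% confidence intervals of edgeR's fit). Filled points mark the 9 members whose groups did not overlap, and the intervals of SLC2A3, LDHA and LDHB lie wholly below 0.

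Of the glucose transporters, SLC2A3 was lower in each variant library and SLC2A1 overlapped between the groups. SLC2A3 (GLUT3, ENSG00000059804; GRCh38 by GENCODE release 29, as for all genes placed here, chromosome 12, 7919230 to 7936275, reverse strand) encodes a high-affinity glucose carrier best known from neurons and embryonic cells. It stood at 59.1 and 71.9 CPM in wild type and at 38.1, 35.5 and 41.9 CPM in the variant libraries. All 3 variant libraries lay below both wild-type libraries. The group means were 65.5 ± 9.02 CPM (SD, n = 2) and 38.5 ± 3.20 CPM (SD, n = 3). The log2 fold change was −0.77 (SE 0.17, 95% confidence interval −1.15 to −0.38), a ratio of 0.588. The unadjusted p in edgeR's quasi-likelihood test was 0.00133 and the adjusted p was 0.616. DESeq2's Wald test gave SLC2A3 an adjusted p of 0.0464, and over all alternatives the adjusted p ran from 0.0464 to 0.998.

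SLC2A1 (GLUT1, ENSG00000117394, chromosome 1, 42925375 to 42959176, reverse strand), the widely expressed basal glucose carrier and a HIF target, stood at 105 and 104 CPM in wild type and at 97.7, 127 and 87.1 CPM in the variant libraries. The variant libraries lay on both sides of the wild-type pair. Its log2 fold change was −0.01 (95% confidence interval −0.42 to 0.40), which leaves room for a change of that size in either direction. Its sign also turned under the replicate block and without variant 1 or variant 3. Within each library the log2 ratio of SLC2A3 to SLC2A1 was −0.83 and −0.53 in wild type and −1.36, −1.83 and −1.06 in the variant. The ratio was lower in each variant library than in both wild-type libraries, by 0.73 on average. An exact two-sided permutation test of that difference gave p = 0.2 (Benjamini-Hochberg adjusted over 8 such pairs, 0.571), where the smallest p this design allows is 0.1. Per kilobase of annotated exon, wild-type SLC2A1 stood at 22.1 CPM and SLC2A3 at 10.6 CPM.

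SLC2A3 has a close copy, SLC2A14, on the same chromosome, which has no row here. Of the 4365 windows of 50 bases in the longest annotated SLC2A3 transcript, 21.5% also occur in transcripts of other genes, nearly all of them (886 windows) in SLC2A14. The reads were 50 bases long, so reads from these stretches cannot be placed between the copies, and the level of SLC2A3 is uncertain to that extent. The 21 expressed genes within 1 megabase of SLC2A3 (mean CPM of at least 1) comprised 15 lower and 6 higher ones (median log2 fold change −0.07). Over all tested genes, 49.5% were lower.

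**Figure D2:**
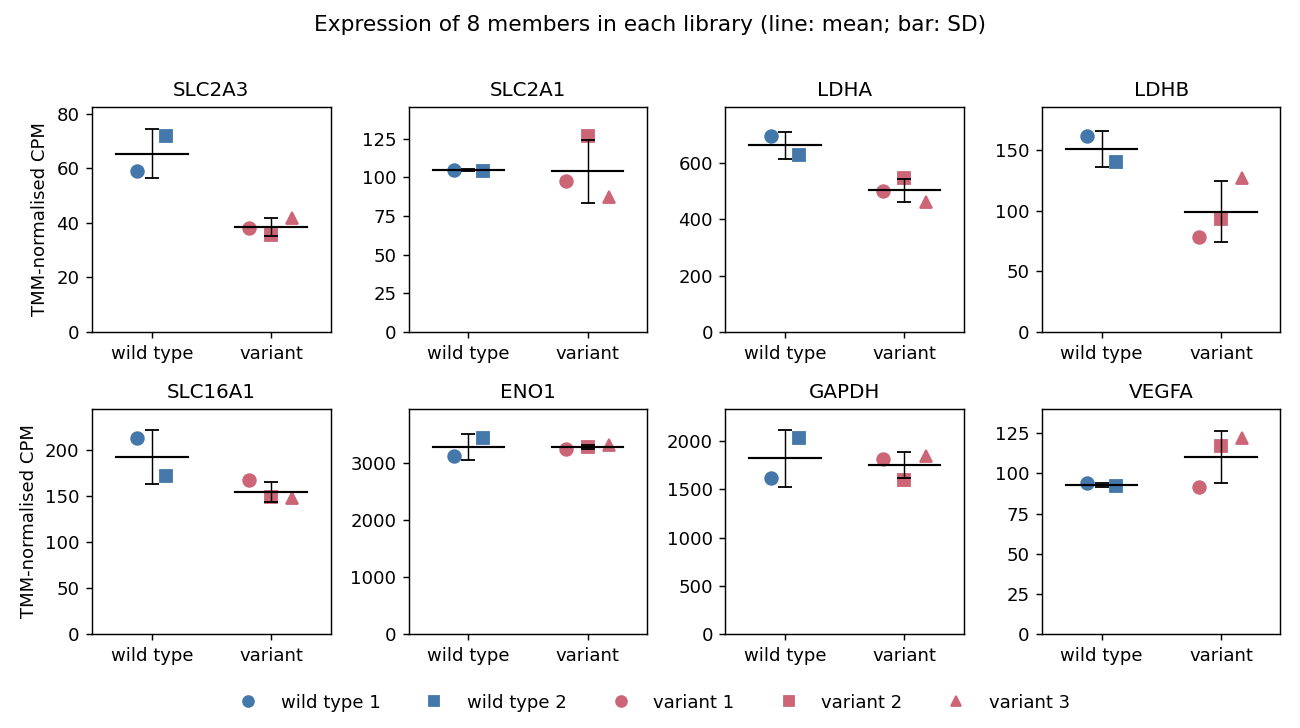
TMM-normalised CPM of 8 members in each library (points, shape by replicate number), with the group mean (line) and SD (bar) for 2 wild-type and 3 variant libraries. SLC2A3, LDHA, LDHB and SLC16A1 are lower in all variant libraries, while SLC2A1, ENO1, GAPDH and VEGFA overlap.

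None of the enzymes between glucose and pyruvate passed an unadjusted p of 0.05 in edgeR's main test. ENO1, which makes phosphoenolpyruvate, was the most abundant glycolytic enzyme by CPM, with 3132 and 3445 CPM in wild type and 3259, 3282 and 3333 CPM in the variant. The variant libraries fell between the wild-type pair, and the log2 fold change was 0.00115 (95% confidence interval −0.27 to 0.27). PKM, the pyruvate kinase gene, stood at 2272 and 2722 CPM in wild type and at 2382, 2358 and 2817 CPM in the variant. Its groups overlapped, with a log2 fold change of 0.01 (SE 0.14). GAPDH, often used as a reference gene, stood at 1615 and 2033 CPM in wild type and at 1820, 1603 and 1849 CPM in the variant, with a log2 fold change of −0.05 (SE 0.14). The signs of the ENO1 and PKM differences turned after the GC and length correction, under the replicate block and without wild type 1 or variant 3, and that of ENO1 also under upper-quartile scaling. The sign of GAPDH turned without wild type 2 or variant 2.

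At the entry steps the interval was widest for HK2. HK1, the main mitochondria-bound hexokinase, had a log2 fold change of −0.01 (SE 0.17). HK2, the inducible hexokinase, stood at 62.6 and 42.4 CPM in wild type and at 60.7, 50.3 and 27.6 CPM in the variant, a spread larger than its log2 fold change of −0.18 (95% confidence interval −0.87 to 0.50). GPI, which makes fructose 6-phosphate, had a log2 fold change of 0.02 (SE 0.15). Of the 3 phosphofructokinase genes, PFKM (−0.15) was lower and PFKP (0.10) higher in all variant libraries, and PFKL (0.20) overlapped. PFKM and PFKP did not pass an unadjusted p of 0.05 in edgeR's test, and their groups nearly met. Variant 3 stood at 123.1 CPM for PFKM beside 123.9 CPM in wild type 1. For PFKP it stood at 211 CPM beside 208 CPM in wild type 2. With GC content and length corrected for, PFKM was at −0.25, PFKP at −0.00236 and PFKL at −0.0431. The PFKFB genes, whose products make and break the activator fructose 2,6-bisphosphate, had log2 fold changes of 0.08 for PFKFB2, 0.16 for PFKFB3 and −0.07 for PFKFB4, and their groups overlapped.

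In the lower arm, TPI1, the triose phosphate isomerase gene, was at 645 and 884 CPM in wild type and 596, 561 and 753 CPM in the variant. Its groups overlapped, with a log2 fold change of −0.26 (SE 0.18). Without wild type 1, the lower wild-type library, the TPI1 difference was −0.47. Without variant 3, the highest variant library, it was −0.40. There edgeR gave an unadjusted p of 0.0444 (0.482 when adjusted), and 10% of all genes had one under 0.05. Leaving out either library favours a larger difference. PGK1, the first ATP-making step, was at 532 and 502 CPM in wild type and 428, 484 and 457 CPM in the variant, so all variant libraries lay below both wild-type libraries. Its log2 fold change was −0.18 (SE 0.13), and it did not pass an unadjusted p of 0.05. PGAM1 (−0.05) and the neuronal enolase gene ENO2 (−0.16) overlapped between the groups.

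Both lactate dehydrogenase genes were lower in the variant libraries. LDHA (ENSG00000134333, chromosome 11, 18394388 to 18408425, forward strand) encodes the subunit that favours lactate formation and is a HIF target. It stood at 694 and 628 CPM in wild type and at 501, 544 and 462 CPM in the variant. The group means were 661 ± 46.8 CPM (SD, n = 2) and 502 ± 41.1 CPM (SD, n = 3), with no overlap. The log2 fold change was −0.40 (SE 0.13, 95% confidence interval −0.70 to −0.09), and edgeR's quasi-likelihood fit gave an unadjusted p of 0.0155 (0.616 when adjusted). Without wild type 1 the unadjusted p for LDHA was 0.0960, with a log2 fold change of −0.32.

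LDHB (ENSG00000111716, chromosome 12, 21635342 to 21757857, reverse strand) encodes the subunit that favours the use of lactate. It stood at 162 and 140 CPM in wild type and at 78.0, 93.1 and 127 CPM in the variant, and variant 3 came close to wild type 2. The group means were 151 ± 15.1 CPM (SD, n = 2) and 99.3 ± 25.1 CPM (SD, n = 3). The log2 fold change was −0.60 (SE 0.21, 95% confidence interval −1.07 to −0.14), and edgeR's quasi-likelihood fit gave an unadjusted p of 0.0162 (0.616 when adjusted). Without wild type 1 the unadjusted p for LDHB was 0.105, with a log2 fold change of −0.50. The 6 expressed genes within 1 megabase of LDHB were all lower in the variant, by log2 fold changes of −0.64 to −0.17 (median −0.38). Within 1 megabase of LDHA, 14 of 16 expressed genes were lower, with a median of −0.17. Over all tested genes, 49.5% were lower. The part of these neighbourhoods in the LDHA and LDHB results was not tested.

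The log2 ratio of LDHA to LDHB within a library was 2.10 and 2.16 in wild type and 2.68, 2.55 and 1.86 in the variant, so the balance of the subunit genes overlapped between the groups. Per kilobase of exon, wild-type LDHA stood at 106 CPM and LDHB at 50.6 CPM. Of the 50-base windows of the longest LDHB transcript, 58.5% also occur in other genes, chiefly in AC010197.2, which GENCODE release 29 places over LDHB on the same strand. How the counting treated reads that fall in overlapping genes is not given in the sources used here.

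Of the lactate carriers, SLC16A1 was lower in each variant library and SLC16A3 overlapped between the groups. SLC16A1 (MCT1) stood at 213 and 172 CPM in wild type and at 167, 149 and 148 CPM in the variant, all below both wild-type libraries although variant 1 and wild type 2 nearly met. EdgeR put the difference at −0.31 on the log2 scale (SE 0.15), with an unadjusted p of 0.0695 (0.659 when adjusted). Without wild type 2, the wild-type library nearer to the variant, the SLC16A1 difference was −0.46. Without variant 1, the variant library nearest to wild type, it was −0.37. There edgeR gave an unadjusted p of 0.0486 (0.645 when adjusted), and 7.65% of all genes had one under 0.05. Leaving out either library favours a larger difference. Within 1 megabase of SLC16A1, 12 of 16 expressed genes were lower (median −0.07), against 49.5% of all tested genes. SLC16A3 (MCT4), the HIF-induced lactate exporter, stood between 4.49 and 5.25 CPM in all libraries, with a log2 fold change of 0.07 (SE 0.27).

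The aldolase genes had low counts for their step. ALDOA stood at 9.44 and 13.0 CPM in wild type and at 12.5, 13.1 and 12.6 CPM in the variant, and ALDOC at 3.32 to 5.03 CPM. Per kilobase of exon, wild-type ALDOA stood at 2.87 CPM, beside 283 CPM for TPI1, the next enzyme. Of the 50-base windows of ALDOA, 53.1% are shared with other genes, mostly with AC093512.2, an overlapping gene on the same strand that stood at 3.56 to 5.48 CPM. PGAM1, at 32.1 CPM per kilobase in wild type, shares 43.3% of its windows, mostly with AC012085.1, AC078819.1 and PGAM4. The levels of ALDOA and PGAM1 are therefore uncertain, and the part of shared sequence in them was not tested. Counting either strand, GAPDH shares 31.4% of its windows with other genes, TPI1 20.8% and DDIT4 44.1%. The same limit holds for their levels, also where TPI1 is set beside ALDOA.

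The oxygen-sensing genes varied between libraries more than between groups. HIF1A, the gene of the oxygen-labile subunit, stood at 113 and 101 CPM in wild type and at 158, 151 and 89.4 CPM in the variant. Variant 1 and variant 2 were the highest and variant 3 the lowest of the 5 libraries. The log2 fold change was 0.31 (SE 0.24). Without variant 3, the variant library that went against it, the HIF1A difference was 0.53. There edgeR gave an unadjusted p of 0.00995 (0.406 when adjusted). Leaving out that library favours a small p, and 10% of all genes had an unadjusted p under 0.05 in that fit. With GC content and length corrected for, the HIF1A difference was 0.50, where edgeR gave an unadjusted p of 0.0434 (0.739 when adjusted).

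The hydroxylase gene EGLN3 stood at 19.9 and 14.4 CPM in wild type and at 16.99, 29.7 and 10.7 CPM in the variant. VHL, which encodes the substrate receptor that marks HIF for destruction, stood at 86.6 and 59.0 CPM in wild type and at 90.0, 86.9 and 57.1 CPM in the variant. EGLN1, the main HIF prolyl hydroxylase gene, stood at 31.9 and 21.4 CPM in wild type and at 30.6, 31.6 and 21.6 CPM in the variant. In EGLN1, EGLN3, VHL, HIF1A and HK2, wild type 2 and variant 3 were the 2 lowest libraries, one from each group. HIF1AN (0.01) and ARNT (−0.09) had log2 fold changes near 0. The library medians of the 6 oxygen-sensing genes, as log2 CPM minus the mean of the 5 libraries, were 0.17 and −0.25 in wild type and 0.19, 0.23 and −0.35 in the variant.

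**Figure D3:**
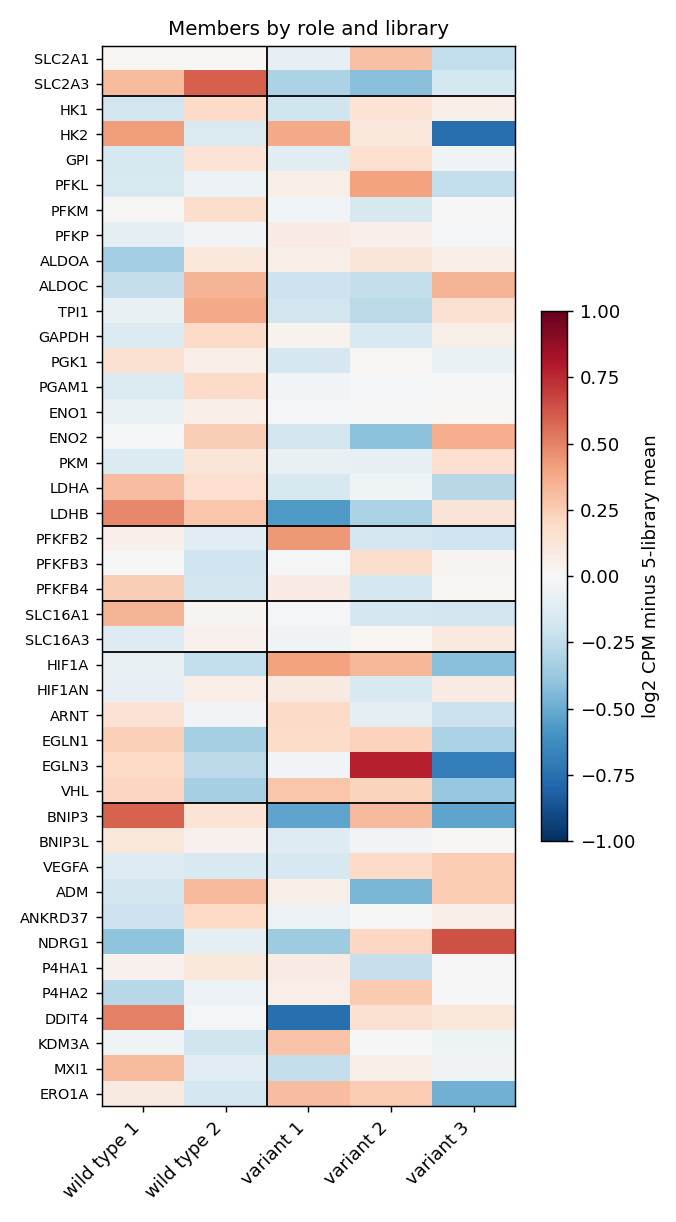
Log2 CPM minus the mean of the 5 libraries for the 42 members (rows, by role) in each library (columns; the vertical line parts 2 wild-type from 3 variant libraries). SLC2A3 and LDHA are above the mean in both wild-type libraries and below it in all variant libraries, LDHB likewise except for variant 3, and EGLN1, EGLN3, VHL and HIF1A are low in both wild type 2 and variant 3.

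Hypoxia targets outside glycolysis went in both directions. Of the 12 tested, 7 had a log2 fold change below 0 and 5 above, and 0 passed an unadjusted p of 0.05 in edgeR's test, against 7.62% of all tested genes. Their median log2 fold change was −0.06, in a range from −0.57 for BNIP3 to 0.46 for NDRG1. Under alternatives, BNIP3, NDRG1 and VEGFA passed an unadjusted p of 0.05: BNIP3 without variant 2 and after the GC and length correction, and NDRG1 and VEGFA without variant 1. Each library left out there was the variant library furthest against the difference, which favours a small p.

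VEGFA, the gene of the vessel growth factor, stood at 93.8 and 92.2 CPM in wild type and at 91.5, 117 and 122 CPM in the variant. Variant 1 lay with wild type while variant 2 and variant 3 lay above, and the log2 fold change was 0.24 (SE 0.17). With GC content and length corrected for, the VEGFA difference was 0.02. ERO1A, whose product oxidises protein disulfide isomerase in the endoplasmic reticulum, stood at 75.2 and 62.6 CPM in wild type and at 87.3, 84.0 and 50.5 CPM in the variant, on both sides of wild type, and the sign of its log2 fold change of 0.10 turned without wild type 2 or variant 1. KDM3A, a histone demethylase gene, stood at 69.0 and 61.5 CPM in wild type and at 86.3, 70.8 and 68.5 CPM in the variant, with a log2 fold change of 0.20 (SE 0.17).

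BNIP3 and BNIP3L encode receptors that bring mitochondria to autophagosomes. BNIP3 stood at 38.6 and 28.1 CPM in wild type and at 17.7, 32.1 and 17.7 CPM in the variant, and variant 2 fell between the wild-type libraries. Without variant 2 its log2 fold change moved from −0.57 to −0.91, where edgeR gave an unadjusted p of 0.00425 (0.947 when adjusted). Leaving out the variant library that lay within wild type favours a small p, and 4.73% of all genes had an unadjusted p under 0.05 in that fit. BNIP3L was slightly lower in all variant libraries, with a log2 fold change of −0.13 (SE 0.16). NDRG1, a strongly hypoxia-induced gene, stood at 26.5 and 32.8 CPM in wild type and at 27.3, 40.5 and 54.6 CPM in the variant.

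The collagen prolyl hydroxylase genes were compared within libraries. P4HA2 stood at 29.5 and 34.4 CPM in wild type and at 37.6, 42.9 and 35.8 CPM in the variant, higher in each, with a log2 fold change of 0.28 (SE 0.18). P4HA1 stood at 33.7 and 35.5 CPM in wild type and at 34.7, 28.0 and 32.7 CPM in the variant. The log2 ratio of P4HA2 to P4HA1 was −0.19 and −0.04 in wild type and 0.11, 0.62 and 0.13 in the variant, and the groups did not overlap. An exact two-sided permutation test of the difference of 0.41 gave p = 0.2 (adjusted over the 8 pairs, 0.571). In the 8 pairs compared, the groups did not overlap for SLC2A3 to SLC2A1 and P4HA2 to P4HA1, and overlapped for HK2 to HK1, LDHA to LDHB, ENO2 to ENO1, ALDOC to ALDOA, BNIP3 to BNIP3L and SLC16A3 to SLC16A1.

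The other targets were spread by library. DDIT4, an mTORC1 inhibitor gene, stood at 71.9 and 49.9 CPM in wild type and at 29.9, 56.3 and 54.8 CPM in the variant, with variant 1 alone below. ADM, the gene of a vasodilator peptide, had a log2 fold change of −0.11 (SE 0.25) and MXI1, the gene of a MYC antagonist, −0.19 (SE 0.20). ANKRD37 rests on 15 to 21 counts per library and shares 61.8% of its 50-base windows with UFSP2, an overlapping gene on the opposite strand, so its log2 fold change of −0.01 (SE 0.38) carries little.

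Glycolytic enzymes and non-glycolytic hypoxia targets were then set side by side. Of the 17 enzymes 11 were lower and 6 higher, and their median log2 fold change was −0.05, beside −0.06 for the 12 targets. The difference of the medians was thus under 0.01, against a spread of the same difference between libraries of one group of 0.137 (pooled SD). By library, as log2 CPM minus the mean of the 5 libraries, the enzyme median was −0.09 in wild type 1 and 0.17 in wild type 2. In the variant libraries, in order of number, it was −0.07, −0.02 and 0.02. The target median was 0.00178 in wild type 1 and −0.04 in wild type 2, and −0.10, 0.11 and 0.00437 in the variant libraries. Both sets of medians overlapped between the groups.

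The branches did not keep step across libraries. The enzyme median minus the target median was −0.09 and 0.20 in wild type and 0.02, −0.12 and 0.01 in the variant. Wild type 2 stood out for its enzymes, 14 of 17 of which lay above the mean of the libraries, with 5 of 12 targets above. Variant 2 stood out for its targets, 9 of 12 of which lay above, with 7 of 17 enzymes above. The share of all counts that came from the 17 enzymes was 1.10% and 1.27% in wild type and 1.09%, 1.14% and 1.197% in the variant.

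**Figure D4:**
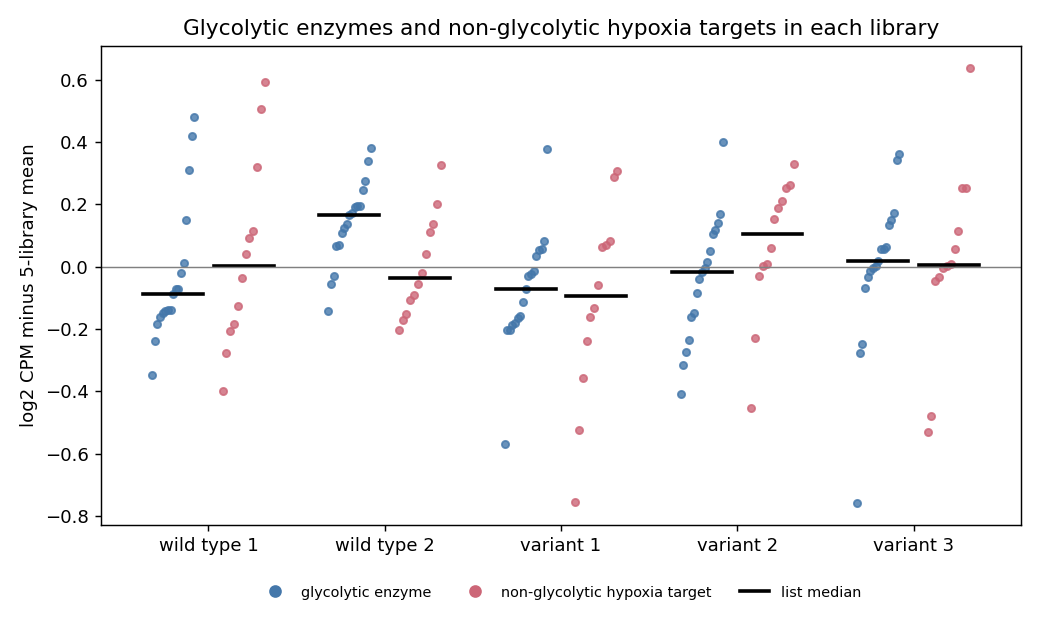
Log2 CPM minus the mean of the 5 libraries for 17 glycolytic enzymes and 12 non-glycolytic hypoxia targets in each library (points, 1 per gene; black bars are list medians). The medians of both lists lie between −0.10 and 0.17 and overlap between wild type and variant.

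GC content moved with these values. The enzyme genes had a median transcript GC content of 53.1% and the targets 46.4%, and SLC2A3 45.8%. Across 10854 genes, which are not independent replicates and share a library, the Spearman correlation of GC content with a library's deviation was −0.530 and 0.0675 in wild type and −0.122, 0.243 and 0.469 in the variant. With GC content and length corrected for, the enzyme median minus the target median was 0.13 and 0.20 in wild type and −0.00438, −0.12 and −0.13 in the variant. The groups no longer overlapped. The correction was fitted library by library without regard to group, and it shifts gene sets of unlike GC content by different amounts. Whether the correction itself made this separation was not tested. For single genes in the main fit, the groups did not overlap at 24.8% of all tested genes. How often a difference of list medians separates the groups was not counted, in either fit. In the corrected fit 16 of 17 enzymes were lower, all but ALDOA, with a median log2 fold change of −0.13. Of the 12 targets 5 were lower, with a median of 0.02, and the median over all genes was −0.02. The share of all genes that were lower in the corrected fit was not counted, and in the main fit it was 49.5%. The count of lower enzymes therefore has no background share of its own fit to be read against. The difference of the enzyme and target medians was then −0.14. The correction left SLC2A3 at −0.79 (SE 0.16), LDHB at −0.54 (SE 0.19) and LDHA at −0.33 (SE 0.12), so these differences were about as large with it.

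Other genes of glycolysis and pyruvate entry were also read. Of 42 listed, 28 were tested, and edgeR's test gave 5 of them p under 0.05 unadjusted (17.9%, against 7.62% of all tested genes), 4 of them lower. The median log2 fold change was −0.09. PGM2, a phosphopentomutase gene, stood at 64.3 and 66.6 CPM in wild type and at 52.1, 47.6 and 46.1 CPM in the variant. MPC2, which encodes a subunit of the mitochondrial pyruvate carrier, stood at 77.9 and 67.0 CPM in wild type and at 42.3, 57.0 and 57.8 CPM in the variant. PDK1, the HIF-induced kinase that shuts pyruvate dehydrogenase, stood at 49.2 and 30.1 CPM in wild type and at 26.5, 30.7 and 20.5 CPM in the variant, and its groups overlapped.

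SLC2A13, which encodes a proton-coupled inositol carrier, had a log2 fold change of −0.63 (SE 0.24), and PFKFB1, the liver isoform gene, 1.53 (SE 0.57) from 5 and 7 wild-type counts. Without wild type 1, 1 of these 28 genes had an unadjusted p under 0.05 (3.57%, against 3.34% of all genes in that fit). There were 2 (7.14%) without variant 1, without variant 3 and with the replicate block, against 7.65%, 10% and 9.55% of all genes. After the GC and length correction there were 3 (10.7%, against 6.62%).

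Other hypoxia genes were tested at 41 of 44 listed, and edgeR's test gave 8 of them p under 0.05 unadjusted (19.5%, against 7.62% of all tested genes), 6 lower and 2 higher. The median log2 fold change was −0.15. After the GC and length correction 5 of 41 passed (12.2%, against 6.62% of all tested genes), and without wild type 1 it was 4 of 41 (9.76%, against 3.34%). PLOD2, a collagen lysyl hydroxylase gene, stood at 95.2 and 89.0 CPM in wild type and at 64.8, 49.4 and 58.3 CPM in the variant. PGF, which encodes placental growth factor, stood at 14.2 and 16.4 CPM in wild type and at 7.92, 8.90 and 8.36 CPM in the variant. In both genes every variant library lay below wild type, with log2 fold changes of −0.68 (SE 0.17) and −0.86 (SE 0.22).

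BHLHE40, a hypoxia-induced transcriptional repressor gene, went the other way, with 67.0 and 67.1 CPM in wild type and 114, 92.1 and 103 CPM in the variant, with a log2 fold change of 0.62 (SE 0.16). ARNT2, a partner of HIF alpha subunits, was also higher, with a log2 fold change of 0.49 (SE 0.18). RBX1, the ring subunit of the VHL ubiquitin ligase, was lower by a log2 fold change of −0.47 (SE 0.18), and FAM162A, a HIF target gene, of −0.51 (SE 0.21). The adjusted p in edgeR's test lay between 0.616 and 0.627 for the 11 genes named from these lists.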

How the data were processed

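The values the authors deposited are whole-number read counts for each gene, not normalized, judging from the table itself. The submitters' processing notes name HISAT2, SAMtools, HTSeq and hg38. The annotation, the strand setting and the gene filter are not given in the sources used here, and the lowest count in the table is 3. Per the labels' protocols, libraries were strand-specific mRNA libraries read for 50 bases from 1 end. Of 16677 identifiers, 16627 matched a symbol in the reference name list, and GENCODE release 29 (GRCh38) placed 16565.

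Low genes were removed with filterByExpr (97.8% kept). All 5 libraries were fitted with edgeR 4.0.16 in R 4.3.3 (TMM, robust quasi-likelihood, group only), and the code was tested on simulated data. SE were derived from the F statistics. Log2 CPM used a prior count of 2. Alternatives were RLE and upper-quartile scaling, no filter, at least 10 counts in every library, DESeq2 1.42.0, limma-voom 3.58.1, per-library splines (5 degrees of freedom) on GC content and transcript length, the replicate number as a block, and leaving out each library. Intervals cover the spread between libraries, and library size limits genes of few counts.

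Members and lists were chosen with earlier results of these data known. Genes were given in full if they were SLC2A3 or SLC2A1, had an unadjusted p under 0.05, had groups that did not overlap and differed by 0.5 or more on the log2 scale, or were among the 3 most abundant enzymes or hypoxia targets. Other members described in full, and the neighbourhood counts, were chosen after their values were seen. Up to 6 genes per list of other pathway genes were named by smallest unadjusted p.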

Additional observations from a re-analysis of the deposited data

How the results depend on the processing

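Under the alternatives the sign changed in 16 of 130 fold changes of single genes and in 6 of 39 list medians and differences of medians. For the counts of other pathway genes the alternatives were chosen after seeing the data. SLC2A3, LDHA and LDHB, the members with an unadjusted p under 0.05 in edgeR's main test, were lower under each alternative run. Their groups did not overlap in the main fit, so leaving out 1 library could hardly turn these signs. DESeq2 called 1 member (SLC2A3) at an adjusted p under 0.05, among 32 genes in all. At an unadjusted p under 0.05 the GC and length correction gave 5 members (11.9%, against 6.62% of all genes). Leaving out 1 library gave 2 (wild type 1 left out, 4.76% against 3.34%) to 6 (variant 1 left out, 14.3% against 7.65%), and 5 with variant 3 left out (11.9% against 10%). Leaving out 1 library put the enzyme median between −0.188 (wild type 1 left out) and 0.122 (wild type 2 left out), the target median between −0.0917 (variant 3 left out) and 0.0505 (wild type 2 left out), and their difference between −0.164 (wild type 1 left out) and 0.0716 (wild type 2 left out). The GC and length correction put that difference at −0.14. The cause was not tested. A fit without a wild-type library assumes that the lone one varies like the others.

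Among single genes, ENO1 was at −0.000504 with upper-quartile scaling, −0.0796 with the GC and length correction, and −0.0664 to 0.0717 with 1 library left out. PKM was at −0.0837 with that correction and −0.113 to 0.149 with 1 library left out. With 1 library left out, SLC2A1 ran from −0.18 to 0.10, GAPDH from −0.21 to 0.12, and ERO1A from −0.0336 to 0.314.

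With the replicate number as a block, edgeR gave 3 members p under 0.05 unadjusted (SLC2A3 −0.82, LDHB −0.82 and HIF1A 0.53), LDHA was at −0.34, and 9.55% of all genes passed. SLC2A1 was at 0.0898, ENO1 at −0.00638 and PKM at −0.0696 under the block. Same-numbered libraries correlated at 0.154 and −0.209 in their deviations. With 2 wild-type libraries these signs are partly fixed by centring, so the check does not settle whether the numbers pair the libraries.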
